A study of Mus musculus with 12 samples.

Results

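The liver is the main site of methionine breakdown, and 39 genes of methionine, one-carbon and transsulfuration metabolism were followed in the livers of mice that lack PC-TP and of wild-type (WT) mice. The genes were taken by symbol from a list of enzymes and a transporter that was chosen with earlier results of these data known. All 39 were found among the 35275 mouse genes of the expression table. They fall into 7 roles, with 7 genes of the methionine cycle, 4 of methyl transfer, 6 of betaine and choline oxidation, 9 of folate and glycine metabolism, 5 of transsulfuration and sulfur oxidation, 3 of taurine synthesis and uptake, and 5 of polyamine synthesis and salvage. All 39 had a mean of at least 0.5 FPKM over the 12 libraries and were tested among 12466 genes. *Mthfd1l* was the member nearest to that limit. Its group means were 0.468 FPKM in WT and 0.285 FPKM in *Pctp*-/- mice on chow, and 1.13 and 0.5198 FPKM on MCD. It passed the limit only through the WT mice on MCD, so its comparisons with that group are described and not read as support.

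Whole livers of 4 groups were sequenced, with 3 mice in each group. WT mice and mice with a whole-body knockout of *Pctp* (*Pctp*-/-) were fed either chow or a diet depleted of methionine and choline (MCD). PC-TP, the product of *Pctp*, is a phosphatidylcholine transfer protein, and the deletion is present in every tissue of the *Pctp*-/- mice, not in the liver alone. The control for the MCD diet was chow, and a methionine- and choline-supplemented version of the MCD diet is not among the groups, so the diets can differ in other components too. Each library was labelled as a separate biological replicate, and the age, the sex and the time on the diet are not given in the labels of these mice. The study states that its animals were all male.

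Methionine is activated to S-adenosylmethionine, the methyl donor of the cell. Methyltransferases turn that donor into S-adenosylhomocysteine, which is split to homocysteine. Homocysteine is either remethylated to methionine, with a methyl group from betaine or from folate, or passed through transsulfuration to cysteine, from which the liver makes taurine. Betaine is made by oxidation of choline, so the MCD diet withdraws both the substrate of the cycle and a source of the methyl groups that refill it. The diet is widely used in mice as a model of steatohepatitis.

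Expression was given as FPKM, a fragment count divided by transcript length and library size, so that levels of different genes can be set side by side. limma was run on log2(FPKM + 1), with Benjamini-Hochberg adjustment over all 12466 genes, and genes with an adjusted p under 0.05 were called. Log2 fold changes are given with their standard error (SE). The added 1 makes fold changes of weakly expressed genes smaller than their ratio of FPKM. Uniquely mapped reads per library numbered 30486576 to 55179468 on chow and 33463498 to 46246856 on MCD. These were 77.6 to 79.4% of the reads on chow, below the 85.7 to 87.5% on MCD, and the read error rate was 0.03% in every chow library and 0.01% in every MCD library, so these measures and the diet cannot be told apart. Whether the libraries were sequenced in sets is not given in the labels. *Pctp* was at 2.25, 1.21 and 2.65 FPKM in WT mice and 0.566, 0.364 and 0.3301 FPKM in *Pctp*-/- mice on chow, and at 7.901, 5.097 and 3.61 FPKM and 0.156, 0.329 and 0.293 FPKM on MCD, so every *Pctp*-/- value lay below every WT value of the same diet. The label of whole liver fits a high level of hepatocyte markers, whose 9 genes in the table summed to 42777 to 47823 FPKM in WT mice on chow.

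Markers of cells other than hepatocytes were also detected. Their counts are to be read against all tested genes, of which 34.5% were called higher on MCD in WT and 26% in *Pctp*-/- mice. The shares called lower were 22.5% and 24.4%. The marker lists too were chosen with earlier results of these data known. Of 8 macrophage markers, 7 rose on MCD in WT mice and 3 in *Pctp*-/- mice, and their summed level was 74.01 to 124 FPKM in WT and 64.9 to 175 FPKM in *Pctp*-/- mice on chow, against 277 to 540.3 FPKM and 291 to 359.7 FPKM on MCD. Of 8 stellate cell markers, 4 rose in WT and 3 in *Pctp*-/- mice, with sums of 33.6 to 58.9 FPKM and 45.2 to 61.2 FPKM on chow and 138 to 202 FPKM and 141 to 167 FPKM on MCD. In each of these sums 1 gene was the largest part on MCD. The macrophage marker *Lyz2* went from a mean of 19.9 to 211 FPKM in WT and from 23.9 to 191 FPKM in *Pctp*-/- mice. The stellate marker *Dcn* went from 31.8 to 135 FPKM and from 35.5 to 128 FPKM. In WT mice the means of *Col1a1* and *Acta2* were lower on MCD, and the other stellate means were higher. Of 8 endothelial markers, 4 rose in WT and 1 in *Pctp*-/- mice. The macrophage markers in WT mice stood furthest above the share of all tested genes called higher. In *Pctp*-/- mice the endothelial, hepatocyte, cholangiocyte and lymphocyte markers lay below it, and in WT mice the hepatocyte and lymphocyte markers did. Of 5 cholangiocyte markers tested, 2 rose in WT and 1 fell in *Pctp*-/- mice. *Cldn4*, 1 of these 2, passed the filter only through WT mice on MCD, at 4.87, 1.29 and 0.552 FPKM. Its other values were 0 to 0.235 FPKM, so its call is not read as support for a rise. Of 3 lymphocyte markers tested 0 were called, with sums of 0.775 to 3.95 FPKM over the 12 libraries. Of the 9 hepatocyte markers, 1 rose and 3 fell in each genotype. No marker of these lists was at 0 in every library. The part of these cells in the diet effects on the 39 genes was not tested, and in RNA of whole liver, fewer cells of a type cannot be told apart from less RNA per cell. Between the genotypes, 0 markers of any of these lists were called on either diet.

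On chow, the highest levels among the 39 genes were those of *Gnmt*, which methylates glycine, at 1619 ± 145 FPKM (SD, n = 3) in WT mice, *Cdo1*, which oxidises cysteine, at 958 ± 68.99 FPKM and *Mat1a*, the liver form of methionine adenosyltransferase, at 745 ± 81.3 FPKM. The values of the 3 WT mice did not overlap between *Gnmt* and *Cdo1* or between *Cdo1* and *Mat1a*. The lowest were *Mthfd1l*, *Sms* and *Mtr*, at 0.468, 1.87 and 2.11 FPKM, and the last of these, methionine synthase, remethylates homocysteine with folate. By mean FPKM, the place among the 39 changed most between the diets for *Mat2a* in both genotypes and, as much, for *Csad* in *Pctp*-/- mice. *Mat2a* went from place 28 on chow in both genotypes to place 8 in WT and 11 in *Pctp*-/- mice on MCD. *Csad* was at place 15 in each group other than *Pctp*-/- mice on MCD, where it was at place 32. *Aldh7a1* went from place 14 to 23 and *Dmgdh* from place 13 to 6 in both genotypes. *Bhmt* moved less, from place 7 to 3 in WT and from place 4 to 1, the highest level, in *Pctp*-/- mice. Together, the 39 genes held 1.43 ± 0.0654% of all FPKM in WT mice on chow and 1.09 ± 0.117% on MCD (SD, n = 3), and 1.47 ± 0.0793% and 1.3004 ± 0.0836% in *Pctp*-/- mice.

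**Figure D1:**
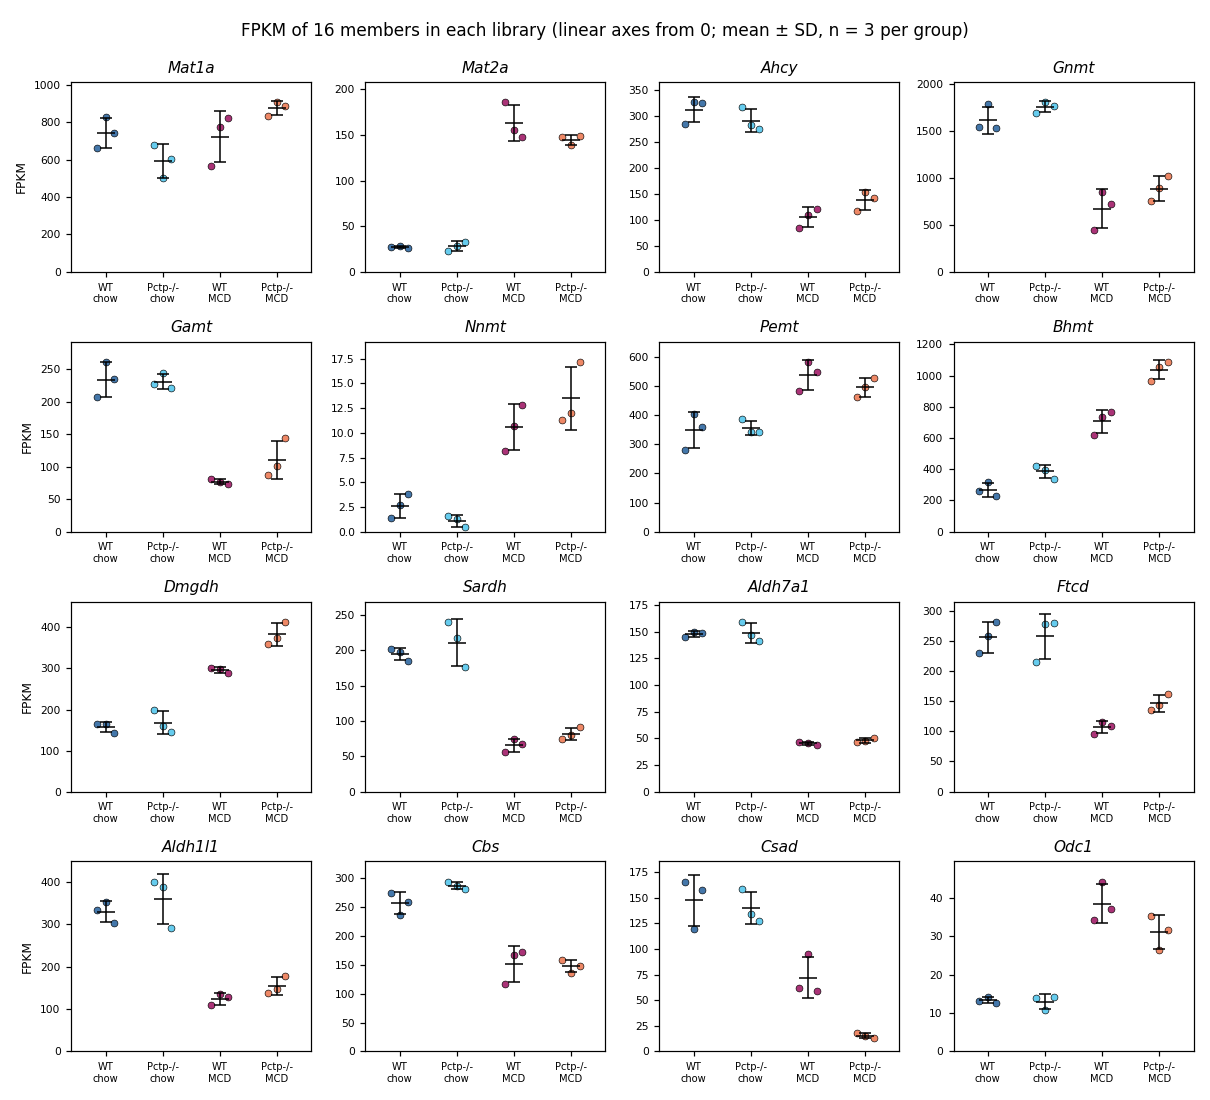
FPKM of 16 of the 39 genes in each of the 12 libraries, on linear axes that start at 0, with points for single mice and bars for mean ± SD (n = 3) in WT and *Pctp*-/- mice on chow or MCD. The MCD libraries lie apart from the chow libraries for *Mat2a*, *Ahcy*, *Gnmt*, *Bhmt*, *Sardh* and *Aldh7a1* in both genotypes, and the 3 *Pctp*-/- MCD libraries have the lowest *Csad* values of all 12.

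The effect of the diet was asked in each genotype separately. Because the 39 genes were chosen with earlier results of these data known, their shares describe the list and test nothing. In WT mice, 28 of the 39 genes were called, 13 higher and 15 lower on MCD, which is 71.8% where 57% of all tested genes were called, 34.5% higher and 22.5% lower. In *Pctp*-/- mice, 25 were called, 12 higher and 13 lower, which is 64.1% where 50.3% of all tested genes were called, 26% higher and 24.4% lower. The share called was higher among genes with a mean of at least 5 FPKM, at 65.1% in WT and 59.2% in *Pctp*-/- mice. That filter leaves out *Mtr*, *Mtrr*, *Sms* and *Mthfd1l*, and 27 and 24 of the remaining members were called. The chow and MCD values did not overlap for 28 of the 39 genes in WT and 30 in *Pctp*-/- mice, where 63.7% and 59.7% of all tested genes did not. Of the 39 genes, 23 were called in both genotypes, 10 higher and 13 lower, and 0 were called in opposite directions. The matching share over all tested genes was not counted, so this overlap is not read as particular to the list. *Gcsh*, *Mthfd1l*, *Shmt1*, *Suox* and *Tst* were called in WT mice only and *Mat1a* and *Mtrr* in *Pctp*-/- mice only, but the diet effects of these 7 genes did not differ between genotypes at the adjusted threshold. The median absolute log2 fold change was 0.62 over the 39 genes and 0.42 over all tested genes in WT mice, and 0.47 and 0.37 in *Pctp*-/- mice. The median signed log2 fold change in WT mice was -0.05 over the 39 genes and 0.11 over all tested genes, and these medians became -0.15 and 0.01 after the libraries were scaled to a common median ratio. Of the genes called, 12 in WT mice and 12 in *Pctp*-/- mice had an absolute log2 fold change of at least 1. Of all tested genes, 14.3% and 10.8% were called with a change of that size.

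**Figure D2:**
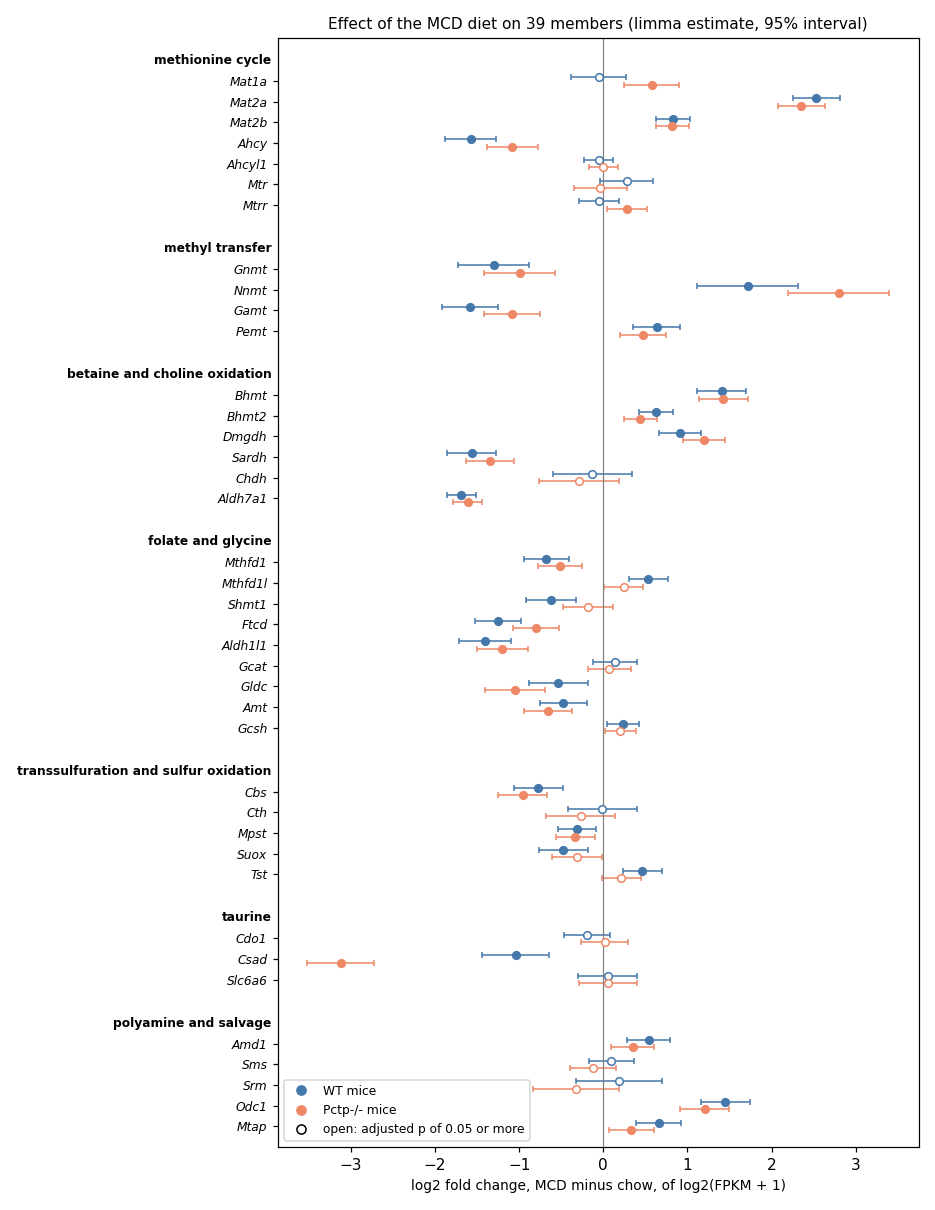
Log2 fold change of MCD against chow, on the log2(FPKM + 1) scale, for each of the 39 genes grouped by role, in WT and *Pctp*-/- mice (limma estimate with its 95% interval, 3 mice per group), with filled points at an adjusted p under 0.05. *Mat2a* and *Nnmt* have the highest estimates in both genotypes, and *Csad* lies at -1.04 in WT and -3.12 in *Pctp*-/- mice.

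Within the methionine cycle, the catalytic subunit found mainly outside the normal adult liver rose and the hydrolase of S-adenosylhomocysteine fell. *Mat2a* (ENSMUSG00000053907, chr6:72432799-72439558, minus strand), which encodes that subunit of methionine adenosyltransferase, was at 27.1, 28.3 and 26.4 FPKM in the WT mice on chow and 186, 156 and 148 FPKM on MCD, and at 22.5, 28.1 and 33.2 FPKM and 148, 139 and 149 FPKM in the *Pctp*-/- mice. Every MCD value lay above every chow value, with a wide gap between the diets, and the genotypes overlapped on each diet. The log2 fold change on MCD was 2.53 (SE 0.13, limma adjusted p = 5.0e-08) in WT mice, a 5.79-fold rise and the largest of the 39 genes, and 2.35 (SE 0.13, limma adjusted p = 1.1e-07) in *Pctp*-/- mice. *Mat2b*, the regulatory subunit that binds the *Mat2a* product, was at 11.7, 10.8 and 11.3 FPKM in WT mice on chow and 19.3, 21.8 and 21.3 FPKM on MCD, and at 10.8, 9.54 and 10.5 FPKM and 17.6, 18.5 and 20.7 FPKM in *Pctp*-/- mice. All of its MCD values lay above all of its chow values, with log2 fold changes of 0.83 and 0.82 and adjusted p of 1.4e-05 and 2.0e-05 from limma.

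*Mat1a*, whose product is the methionine adenosyltransferase of the differentiated hepatocyte, did not move alike. Its level was 665, 828 and 741 FPKM in WT mice on chow and 569, 776 and 825 FPKM on MCD, and the groups overlapped (adjusted p = 0.771 from limma). In *Pctp*-/- mice it was 679, 499.9 and 602 FPKM on chow and 836, 909 and 889 FPKM on MCD, with every MCD value above every chow value and a log2 fold change of 0.57 (SE 0.15, limma adjusted p = 0.00717). The difference between these diet effects was 0.63 on the log2 scale, with an unadjusted p of 0.0118 and an adjusted p of 0.192 from limma, and did not pass. Within each library, the ratio of *Mat1a* to *Mat2a* FPKM was 27.3 ± 2.47 in WT and 22.04 ± 7.11 in *Pctp*-/- mice on chow, and 4.53 ± 1.32 and 6.06 ± 0.446 on MCD (SD, n = 3).

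*Ahcy*, the enzyme that splits S-adenosylhomocysteine, was at 284, 327 and 326 FPKM in WT mice on chow and 83.97, 109.9 and 121 FPKM on MCD. Its level in *Pctp*-/- mice was 318, 282 and 275 FPKM on chow and 117, 155 and 142 FPKM on MCD. Every MCD value lay below every chow value, and the genotypes overlapped on each diet. *Ahcy* fell by 1.58 log2 units in WT mice (SE 0.14, limma adjusted p = 2.9e-06) and by 1.08 in *Pctp*-/- mice (adjusted p = 6.5e-05). *Ahcyl1*, a relative of *Ahcy* that regulates calcium release rather than the hydrolysis, was at 33.8, 31.4 and 29.1 FPKM in WT mice on chow and 31.2, 30.4 and 28.9 FPKM on MCD, and at 30.8, 31.1 and 29.5 FPKM and 30.1, 31.1 and 30.4 FPKM in *Pctp*-/- mice. The diets overlapped, and its diet effects were not called (adjusted p = 0.57 and 0.984). Methionine synthase and its reductase were expressed at low levels. *Mtr* lay between 1.57 and 3.06 FPKM in the 12 libraries and was called in neither genotype. *Mtrr*, which reactivates methionine synthase, was at 1.95, 2.31 and 2.42 FPKM in *Pctp*-/- mice on chow and 3.13, 2.44 and 3.27 FPKM on MCD, a log2 fold change of 0.29 (SE 0.11, limma adjusted p = 0.0448). That call was near the threshold, the 3 MCD values being above the 3 chow values, and it was lost in 12 of 21 alternatives, among them those without any 1 of *Pctp*-/- chow mice 1 and 2, *Pctp*-/- MCD mice 1 and 3, WT chow mice 2 and 3 and WT MCD mice 2 and 3, where the adjusted p was 0.056 to 0.158.

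Sequences before the start sites of *Mat2a*, the largest rise in WT mice, and of *Gnmt*, the gene with the highest level on chow, are shown because their products make and use the same methyl donor and their levels moved in opposite directions. They are RefSeq promoter sequences of GRCm38.p6, 5′ to 3′ on the strand of the gene, with bases of the genes' own exons left out. Capitals mark matches on either strand to 3 motifs of core promoters. They are TATAAA, the element that binds the TATA-binding protein, then GGGCGG, the element of Sp factors, and last CCAAT, the element of the factor NF-Y.
Mat2a: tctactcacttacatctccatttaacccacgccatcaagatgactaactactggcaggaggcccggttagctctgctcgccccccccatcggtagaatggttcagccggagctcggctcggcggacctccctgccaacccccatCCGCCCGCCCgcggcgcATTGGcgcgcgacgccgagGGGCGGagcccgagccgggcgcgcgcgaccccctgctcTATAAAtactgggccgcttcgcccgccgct
Gnmt: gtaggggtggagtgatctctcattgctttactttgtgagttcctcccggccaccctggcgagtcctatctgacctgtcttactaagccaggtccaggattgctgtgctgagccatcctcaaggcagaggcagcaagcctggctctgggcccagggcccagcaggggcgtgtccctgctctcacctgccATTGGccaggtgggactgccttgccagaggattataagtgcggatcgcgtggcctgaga
The *Mat2a* sequence is chr6:72439559-72439806 on the minus strand. It holds TATAAA 32 bases before the start, GGGCGG on the forward strand 70 bases before it and on the reverse strand 102 and 106 bases before it, where the matches overlap, and CCAAT on the reverse strand 89 bases before it. The *Gnmt* sequence is chr17:46729169-46729415 on the minus strand, and of these motifs it holds CCAAT on the reverse strand, 62 bases before the start. A match describes letters in the window and not a bound site.

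All 4 methyl transfer genes were called in both genotypes, 2 higher and 2 lower. Of all tested genes, 57% were called in WT and 50.3% in *Pctp*-/- mice. *Gnmt* (ENSMUSG00000002769, chr17:46725664-46729168, minus strand) makes sarcosine from glycine and S-adenosylmethionine and is held to buffer the level of that donor in hepatocytes. Its level was 1541, 1787 and 1530.0 FPKM in WT mice on chow and 451, 848 and 729 FPKM on MCD, and 1695, 1811 and 1774 FPKM and 755, 891 and 1019.5 FPKM in *Pctp*-/- mice. The MCD values lay below all chow values, and WT MCD mouse 1 had the lowest of the 12. *Gnmt* fell by 1.30 log2 units in WT mice (SE 0.19, limma adjusted p = 1.3e-04) and by 1.00 in *Pctp*-/- mice (adjusted p = 0.0011).

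*Gamt*, the methyltransferase that completes creatine, was at 207, 261 and 235 FPKM in WT mice on chow and 81.7, 76.9 and 72.8 FPKM on MCD. The *Pctp*-/- mice had 228, 244 and 221 FPKM on chow and 87.1, 101 and 143 FPKM on MCD. The diets did not overlap in either genotype, and *Pctp*-/- MCD mouse 3 lay above the other 5 MCD mice. The log2 fold change was -1.58 (SE 0.15, limma adjusted p = 5.3e-06) in WT mice and -1.09 (SE 0.15, limma adjusted p = 1.2e-04) in *Pctp*-/- mice.

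*Nnmt*, which methylates nicotinamide, had the largest rise of the 4 methyl transfer genes. It was at 1.37, 2.65 and 3.83 FPKM in WT mice on chow and 8.15, 10.7 and 12.8 FPKM on MCD, and at 1.62, 1.24 and 0.464 FPKM and 11.3, 12.01 and 17.2 FPKM in *Pctp*-/- mice. All MCD values lay above all chow values, from low levels on chow that varied between mice. The log2 fold change was 1.72 (SE 0.28, limma adjusted p = 2.4e-04) in WT mice and 2.80 (SE 0.28, limma adjusted p = 8.3e-06) in *Pctp*-/- mice, and these effects did not differ at the adjusted threshold (difference 1.08, adjusted p = 0.219). *Pemt*, which makes phosphatidylcholine from phosphatidylethanolamine by repeated methylation, rose from 348 ± 61.6 to 537 ± 50.6 FPKM in WT mice and from 357 ± 24.7 to 495 ± 33.8 FPKM in *Pctp*-/- mice (SD, n = 3). Its log2 fold changes were 0.64 and 0.47, with adjusted p of 0.00119 and 0.00889 from limma.

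Genes of betaine and choline oxidation divided along the path. The steps that take a methyl group from betaine and then oxidise dimethylglycine rose, and the next step, the oxidation of sarcosine, fell. *Bhmt* (ENSMUSG00000074768, chr13:93616675-93637961, minus strand), betaine-homocysteine methyltransferase, was at 259, 317 and 226 FPKM in WT mice on chow and 620.03, 736 and 764 FPKM on MCD. The *Pctp*-/- mice had 421, 398 and 339 FPKM on chow and 968, 1058 and 1087 FPKM on MCD. The 4 groups did not overlap in any pair, with WT chow lowest and *Pctp*-/- MCD highest. *Bhmt* rose by 1.41 log2 units in WT mice (SE 0.13, limma adjusted p = 4.6e-06) and by 1.43 in *Pctp*-/- mice (SE 0.13, adjusted p = 5.6e-06).

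*Bhmt2*, which uses S-methylmethionine in place of betaine, was at 91.4, 98.1 and 88.7 FPKM in WT mice on chow and 139, 142 and 149.6 FPKM on MCD, and at 119, 98.4 and 98.7 FPKM and 142, 137 and 151 FPKM in *Pctp*-/- mice. Its MCD values lay above its chow values, by less than those of *Bhmt*, and the log2 fold changes were 0.63 and 0.44 (adjusted p = 1.2e-04 and 0.00181 from limma). *Dmgdh*, dimethylglycine dehydrogenase, was at 164, 164 and 143 FPKM in WT mice on chow and 302, 298 and 289 FPKM on MCD, and at 199.96, 159 and 145 FPKM and 361, 375 and 414 FPKM in *Pctp*-/- mice. The MCD values of each genotype lay above all chow values, and the *Pctp*-/- MCD values above those of WT. *Dmgdh* rose by 0.91 log2 units in WT and by 1.20 in *Pctp*-/- mice (adjusted p = 4.0e-05 and 7.0e-06).

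*Sardh*, sarcosine dehydrogenase, which acts on the product of *Dmgdh* and of *Gnmt*, was at 202, 198 and 185 FPKM in WT mice on chow and 55.4, 73.9 and 67.5 FPKM on MCD. Its level in *Pctp*-/- mice was 240.2, 217 and 176 FPKM on chow and 74.4, 80.4 and 91.2 FPKM on MCD. Every MCD value lay below every chow value, and the log2 fold change was -1.56 (SE 0.13, limma adjusted p = 2.0e-06) in WT and -1.35 (SE 0.13, limma adjusted p = 8.3e-06) in *Pctp*-/- mice. *Aldh7a1*, an aldehyde dehydrogenase that makes betaine from betaine aldehyde and also serves lysine breakdown, was at 145, 149.998 and 149 FPKM in WT mice on chow and 46.3, 46.02 and 43.6 FPKM on MCD, and at 159, 147 and 141 FPKM and 46.1, 47.5 and 50.6 FPKM in *Pctp*-/- mice. The diets were far apart and the genotypes overlapped on both. Its log2 fold change was -1.69 (SE 0.08, limma adjusted p = 2.7e-08) in WT mice, the largest fall of the 39 genes there, and -1.61 in *Pctp*-/- mice. *Chdh*, choline dehydrogenase, lay between 25.99 and 46.99 FPKM over the 12 libraries and was called in neither genotype (adjusted p = 0.632 and 0.291).

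*Bhmt*, *Bhmt2* and *Dmgdh* lie side by side on chromosome 13, with 17758 bases between *Bhmt* and *Bhmt2* and 130 bases between *Bhmt2* and *Dmgdh*, which are transcribed away from each other. The interval between the last pair is shown because both genes rose on MCD in both genotypes. It is chr13:93674303-93674432, given on the plus strand in the direction of *Dmgdh*, from RefSeq sequence of GRCm38.p6.
Bhmt2-Dmgdh: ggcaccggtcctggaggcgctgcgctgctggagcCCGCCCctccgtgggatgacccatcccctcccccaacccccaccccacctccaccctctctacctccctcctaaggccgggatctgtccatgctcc
Capitals mark GGGCGG on the reverse strand, 99 bases before the start of *Dmgdh*, the only match to the searched motifs in this interval. An annotated gene on the opposite strand, *Gm15622*, shares exon bases with *Bhmt* and was at 3.48 FPKM in WT and 5.64 FPKM in *Pctp*-/- mice on chow and at 1.098 and 0.598 FPKM on MCD, and whether the counting used strand is not given in the sources used here.

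In folate and glycine metabolism, 6 of 9 genes fell in WT mice and 5 in *Pctp*-/- mice, where 22.5% and 24.4% of all tested genes were called lower. *Aldh1l1*, which releases carbon dioxide from formyltetrahydrofolate, was at 333, 354 and 303 FPKM in WT mice on chow and 109, 134 and 129.7 FPKM on MCD, and at 400.5, 388 and 291 FPKM and 139, 148 and 179 FPKM in *Pctp*-/- mice. The MCD values were all below the chow values. The log2 fold change was -1.40 (SE 0.14, limma adjusted p = 6.8e-06) in WT and -1.20 (SE 0.14, limma adjusted p = 2.9e-05) in *Pctp*-/- mice.

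*Ftcd*, which passes a one-carbon unit from histidine breakdown to folate, was at 230.1, 258 and 282 FPKM in WT mice on chow and 95.8, 116 and 109 FPKM on MCD. Its level in *Pctp*-/- mice was 215, 278 and 279 FPKM on chow and 135, 143 and 162 FPKM on MCD. The diets did not overlap, and on MCD the *Pctp*-/- values lay above those of WT. *Ftcd* fell by 1.25 log2 units in WT mice (SE 0.13, limma adjusted p = 7.2e-06) and by 0.80 in *Pctp*-/- mice (adjusted p = 2.6e-04). The difference between these effects was 0.45 (unadjusted p = 0.0258, adjusted p = 0.256 from limma) and did not pass.

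Among the folate enzymes that exchange one-carbon units, *Mthfd1*, the cytosolic enzyme with 3 activities, fell from 85.4 ± 3.76 to 53.4 ± 7.51 FPKM in WT and from 83.9 ± 12.7 to 57.997 ± 0.793 FPKM in *Pctp*-/- mice (SD, n = 3). *Shmt1*, cytosolic serine hydroxymethyltransferase, fell from 95.6 ± 14.99 to 61.8 ± 9.91 FPKM in WT mice, and was at 90.97 ± 7.39 and 80.005 ± 3.33 FPKM in *Pctp*-/- mice (adjusted p = 0.286 from limma). *Mthfd1l*, the mitochondrial enzyme that makes formate, rose from 0.479, 0.365 and 0.559 FPKM on chow to 1.21, 1.24 and 0.941 FPKM on MCD in WT mice, and was at 0.324, 0.269 and 0.263 and 0.519, 0.541 and 0.499 FPKM in *Pctp*-/- mice. It was the lowest of the 39 genes in each group, and its WT MCD values lay above all other libraries. Only through that group did it pass the filter, so its call in WT mice is not read as support for a rise. Its log2 fold change was 0.54 (SE 0.11, limma adjusted p = 9.9e-04) in WT mice, and 0.24 in *Pctp*-/- mice (adjusted p = 0.073), where it passed with no filter on low values, with no mean-variance trend and with a pseudocount of 0.1 (adjusted p = 0.0343, 0.0437 and 0.0369).

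The 3 genes of the glycine cleavage system that are specific to it did not move together. *Gldc*, its decarboxylase, fell from 63.9 ± 17.1 to 42.9 ± 1.498 FPKM in WT mice and from 78.7 ± 13.4 to 37.2 ± 2.17 FPKM in *Pctp*-/- mice (SD, n = 3), with log2 fold changes of -0.53 and -1.05. *Amt*, its aminomethyltransferase, fell by 0.48 and 0.66 on the log2 scale (adjusted p = 0.00764 and 0.00123 from limma). *Gcsh*, its lipoyl carrier, rose in WT mice from 44.03 ± 2.37 to 52.03 ± 3.34 FPKM, by 0.24 log2 units (adjusted p = 0.0344). The median over all tested genes was 0.11 in the same comparison. The call of *Gcsh* was lost in 7 of 22 alternatives, which were scaling to a common median ratio (0.10, adjusted p = 0.412), quantile normalization (adjusted p = 0.118), a fit of only the libraries compared (adjusted p = 0.0621) and leaving out any 1 of WT chow mice 1 and 3 and WT MCD mice 2 and 3 (adjusted p = 0.0642 to 0.120). *Gcat*, which acts in threonine breakdown, lay between 44.6 and 62.9 FPKM and was called in neither genotype.

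Transsulfuration starts with *Cbs*, cystathionine beta-synthase, and continues with *Cth*, cystathionine gamma-lyase, and these genes differed in response. *Cbs* was at 275, 237 and 259 FPKM in WT mice on chow and 116, 167 and 172 FPKM on MCD, and at 294, 287 and 282 FPKM and 158, 137 and 148 FPKM in *Pctp*-/- mice. Every MCD value lay below every chow value, with WT MCD mouse 1 lowest. The log2 fold change was -0.77 (SE 0.13, limma adjusted p = 3.9e-04) in WT and -0.96 (SE 0.13, limma adjusted p = 1.0e-04) in *Pctp*-/- mice. *Cth* ranged from 41.8 to 74.8 FPKM over the 12 libraries, with overlap between the diets, and was called in neither genotype (adjusted p = 0.963 and 0.261).

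Of the sulfur oxidation genes, *Suox*, sulfite oxidase, fell from 58.2 ± 3.98 to 41.96 ± 7.07 FPKM in WT mice (log2 fold change -0.48, adjusted p = 0.00976 from limma). *Mpst*, which moves sulfur from mercaptopyruvate, fell by 0.31 log2 units in WT and by 0.33 in *Pctp*-/- mice (adjusted p = 0.024 and 0.0198). *Tst*, thiosulfate sulfurtransferase, lies 508 bases from *Mpst* on chromosome 15 and is transcribed away from it. *Tst* rose in WT mice from 159.5 ± 13.1 to 222 ± 32.6 FPKM (SD, n = 3), by 0.47 log2 units (adjusted p = 0.00273), and by 0.33 with an adjusted p of 0.0578 after scaling to a common median ratio. The fall of *Mpst* in WT mice was not called without WT MCD mouse 1 (-0.19, adjusted p = 0.0981) or WT chow mouse 2 (-0.28, adjusted p = 0.0752) or in a fit of only the libraries compared (adjusted p = 0.0549). In *Pctp*-/- mice it was not called without any 1 of *Pctp*-/- chow mice 1 and 2 and *Pctp*-/- MCD mice 1 and 2 (adjusted p = 0.0505 to 0.0677) or after quantile normalization (-0.24, adjusted p = 0.0797).

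The member with the largest difference between genotypes was *Csad* (ENSMUSG00000023044, chr15:102176999-102204724, minus strand), cysteine sulfinic acid decarboxylase, which makes hypotaurine, the precursor of taurine. In WT mice it was at 166, 119 and 158 FPKM on chow and 62.3, 94.9 and 59.2 FPKM on MCD. In *Pctp*-/- mice it was at 158, 134 and 128 FPKM on chow and 17.8, 14.8 and 13.3 FPKM on MCD. The genotypes overlapped on chow, the WT MCD values lay below all chow values, and the *Pctp*-/- MCD values lay below all others. *Csad* fell on MCD by 1.04 log2 units in WT mice (SE 0.18, limma adjusted p = 4.6e-04) and by 3.12 in *Pctp*-/- mice (SE 0.18, adjusted p = 1.8e-07), the largest fall of the 39 genes in that genotype.

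Between the genotypes, *Csad* was 4.42-fold lower in *Pctp*-/- than in WT mice on MCD, a log2 fold change of -2.15 (SE 0.18, limma adjusted p = 2.4e-04). It was the only one of the 39 genes called in a knockout comparison. On chow the log2 fold change was not called, with 140.1 ± 16.1 FPKM in *Pctp*-/- and 148 ± 24.99 FPKM in WT mice (SD, n = 3, adjusted p = 0.986). The difference between the diet effects was -2.08 (SE 0.26, limma adjusted p = 0.0144), 1 of 12 genes called of all tested. That call was lost without *Pctp*-/- MCD mouse 2 (-2.06, adjusted p = 0.0556) or mouse 3 (-1.99, adjusted p = 0.0533), while the fall against WT on MCD stayed called without any 1 library, at -1.93 or lower. These comparisons share libraries and are not independent of each other. *Zfp740*, which shares exon bases with *Csad* on the opposite strand, was at 10.5, 9.73, 9.41 and 8.68 FPKM in WT chow, *Pctp*-/- chow, WT MCD and *Pctp*-/- MCD mice.

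The 2 start sites that RefSeq gives for *Csad* are shown as the sequence before each, on the minus strand of GRCm38.p6, at chr15:102205053-102205302 and chr15:102189059-102189293. Capitals mark CCAAT in the first, on the forward strand 75 bases before the start, and GGGCGG in the second, on the reverse strand 72 bases before it.
Csad start 1: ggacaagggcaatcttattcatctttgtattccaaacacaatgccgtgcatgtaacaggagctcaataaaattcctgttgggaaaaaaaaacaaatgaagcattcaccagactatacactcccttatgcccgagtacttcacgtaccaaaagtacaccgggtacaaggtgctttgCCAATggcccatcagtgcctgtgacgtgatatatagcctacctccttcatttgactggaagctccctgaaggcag
Csad start 2: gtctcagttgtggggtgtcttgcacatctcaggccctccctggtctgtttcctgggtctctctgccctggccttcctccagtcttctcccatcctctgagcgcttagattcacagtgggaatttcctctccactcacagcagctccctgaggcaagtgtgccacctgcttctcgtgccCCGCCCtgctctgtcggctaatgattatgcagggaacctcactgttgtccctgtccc
The expression table gives 1 value per gene, so it does not say from which start the reads came.

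The other taurine genes did not follow *Csad*. *Cdo1*, cysteine dioxygenase, which makes the substrate of *Csad*, was at 908 to 1072 FPKM in the 6 chow libraries and 692 to 1034 FPKM in the 6 MCD libraries, and was called in neither diet comparison (adjusted p = 0.216 and 0.921 from limma). *Slc6a6*, the taurine transporter, lay between 19.03 and 30.5 FPKM over the 12 libraries and was called in no comparison. Within a library, the ratio of *Cdo1* to *Csad* FPKM, a pair chosen after its values were seen, was 6.69 ± 1.76 in WT and 7.25 ± 0.98999 in *Pctp*-/- mice on chow, 12.3 ± 4.29 in WT mice on MCD and 67.7 ± 10.8 in *Pctp*-/- mice on MCD (SD, n = 3).

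**Figure D3:**
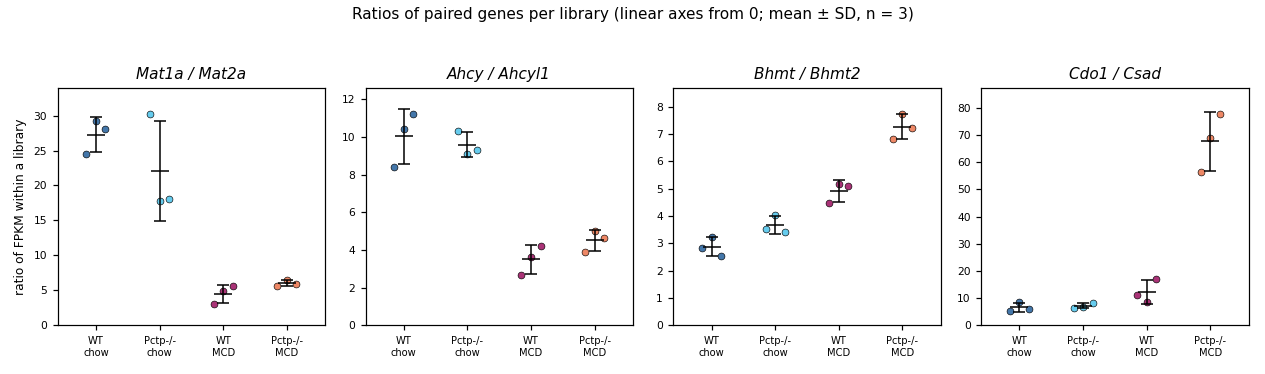
Ratio of the FPKM of 2 genes within each library (no unit, linear axes from 0), with points for single mice and bars for mean ± SD (n = 3), for *Mat1a* to *Mat2a*, *Ahcy* to *Ahcyl1*, *Bhmt* to *Bhmt2* and *Cdo1* to *Csad*. The first pair of ratios is lower in all MCD libraries than in all chow libraries, *Bhmt* to *Bhmt2* is higher in all MCD libraries, and *Cdo1* to *Csad* is 56.3 to 77.8 in *Pctp*-/- mice on MCD.

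Of the 5 polyamine and salvage genes, 3 rose in both genotypes and 0 fell. Of all tested genes, 34.5% were called higher in WT and 26% in *Pctp*-/- mice. *Odc1*, ornithine decarboxylase, which makes putrescine, was at 13.2, 14.3 and 12.6 FPKM in WT mice on chow and 34.3, 44.2 and 37.1 FPKM on MCD, and at 13.9, 10.8 and 14.2 FPKM and 35.2, 26.6 and 31.7 FPKM in *Pctp*-/- mice. All MCD values lay above all chow values, and the log2 fold change was 1.45 (SE 0.14, limma adjusted p = 3.8e-06) in WT and 1.20 (SE 0.14, limma adjusted p = 2.2e-05) in *Pctp*-/- mice. *Amd1*, which decarboxylates S-adenosylmethionine for polyamine synthesis, rose from 10.6 ± 1.42 to 15.8 ± 1.16 FPKM in WT mice and from 9.32 ± 0.717 to 12.2 ± 1.599 FPKM in *Pctp*-/- mice (SD, n = 3), with log2 fold changes of 0.54 and 0.35. *Mtap*, which salvages the methylthioadenosine left by polyamine synthesis, rose by 0.66 and 0.33 on the log2 scale (adjusted p = 7.6e-04 and 0.0405 from limma).

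In *Pctp*-/- mice the calls of these last genes depended on single libraries. *Amd1* (adjusted p = 0.0274) was not called without *Pctp*-/- chow mouse 1 or *Pctp*-/- MCD mouse 1 or 3 (adjusted p = 0.0541 to 0.123). *Mtap* was not called without *Pctp*-/- chow mouse 2 or 3 or any 1 of the 3 *Pctp*-/- MCD mice (adjusted p = 0.0641 to 0.136), or with no filter on low values (adjusted p = 0.0634). *Amd1* has a near-identical copy, *Amd2*, which was at 0.645 to 1.77 FPKM, and how shared reads were divided is not given. *Srm* and *Sms*, the synthases of spermidine and spermine, ranged from 15.04 to 32.7 FPKM and from 1.302 to 2.24 FPKM and were called in no comparison.

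The effect of the knockout was asked within each diet. On chow, 0 of the 39 genes were called by limma, where 0.136% of all tested genes were called. An unadjusted p under 0.05 was found for 4 of them, where 6.98% of all tested genes had one. *Bhmt* had the lowest p of these, with a log2 fold change of 0.54 (unadjusted p = 0.0017, adjusted p = 0.226) and the 3 *Pctp*-/- values above the 3 WT values. For *Mtrr* the log2 fold change was -0.35 (adjusted p = 0.392), for *Nnmt* -0.76 (adjusted p = 0.529) and for *Mat1a* -0.33 (adjusted p = 0.703). The groups of *Mtrr* did not overlap, and those of *Nnmt* and *Mat1a* did. In all, 6 of the 39 genes had groups that did not overlap, which is to be read against 10.6% of all tested genes.

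On MCD, *Csad* was the 1 gene called, as lower, where 0.818% of all tested genes were called and 0.521% were lower. An unadjusted p under 0.05 was found for 15 of the 39, where 16.3% of all tested genes had one. The groups of 14 did not overlap, where 26.6% of all tested genes had groups that did not. Next after *Csad* came *Mthfd1l*, at 0.5198 FPKM in *Pctp*-/- and 1.13 FPKM in WT mice, with a log2 fold change of -0.48 (SE 0.11, limma adjusted p = 0.0577), and it was called with no filter on low values (adjusted p = 0.0328), with no mean-variance trend (0.0390) and without WT MCD mouse 3 (0.0409). *Mthfd1l* passed the filter only through the WT group of this comparison. *Bhmt* was at 1038 ± 62.4 FPKM in *Pctp*-/- and 707 ± 76.3 FPKM in WT mice (SD, n = 3), with a log2 fold change of 0.56 (adjusted p = 0.0849), and was called after quantile normalization (adjusted p = 0.0346). *Ftcd* had a log2 fold change of 0.45 (adjusted p = 0.113).

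The log2 fold changes of the other 11 on MCD were between -0.35 for *Amd1* and 0.48 for *Gamt*, with adjusted p of 0.147 for *Dmgdh* to 0.304 for *Sms*. *Ahcy*, *Gnmt*, *Gamt*, *Dmgdh*, *Sardh*, *Shmt1*, *Aldh1l1* and *Cdo1* had estimates above 0, and *Amd1*, *Odc1* and *Sms* below 0. The median log2 fold change over all 39 genes was 0.04 on MCD, and -0.09 over all tested genes. That median over all tested genes was -0.01 after scaling to a common median ratio, and the median of the 39 genes was then 0.15.

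**Figure D4:**
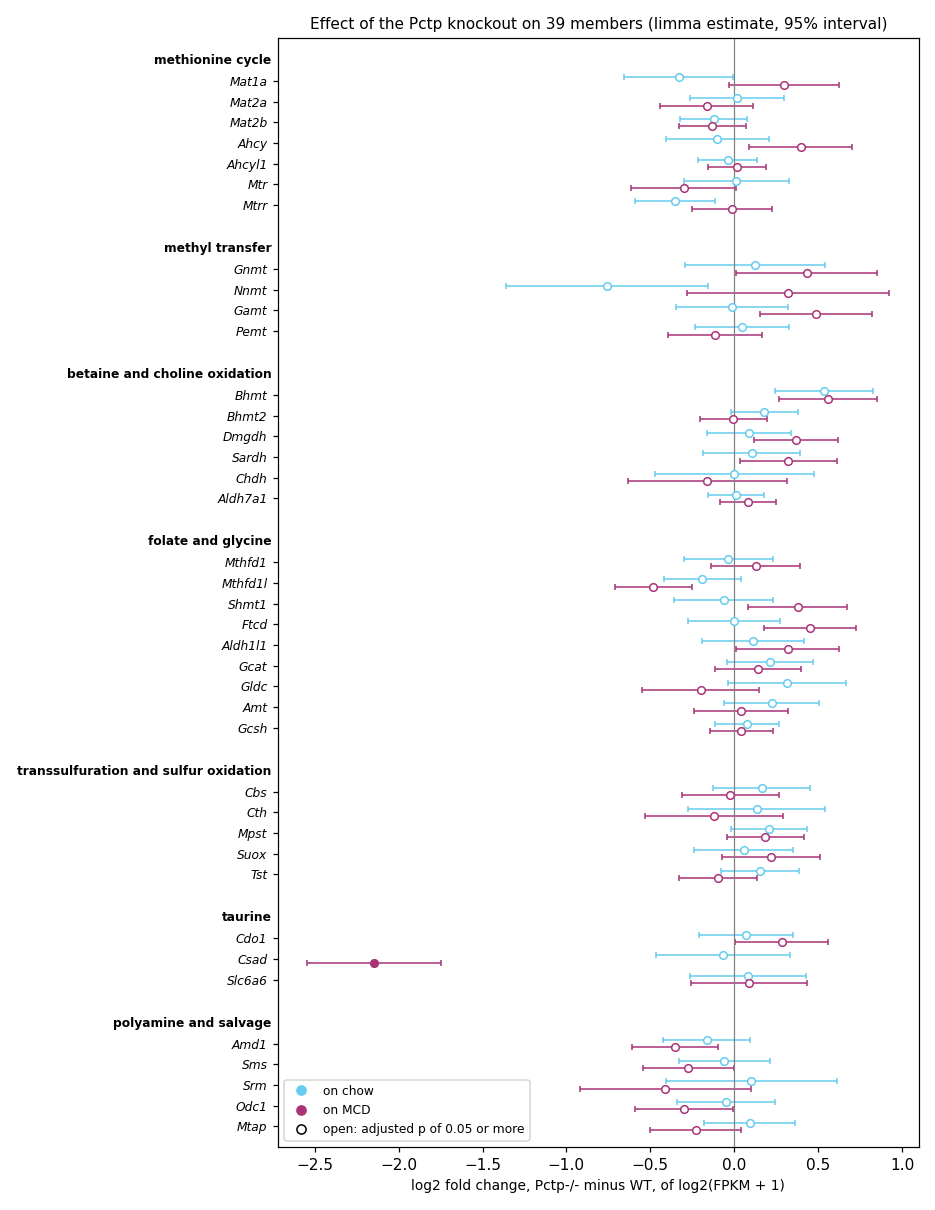
Log2 fold change of *Pctp*-/- against WT mice, on the log2(FPKM + 1) scale, for each of the 39 genes grouped by role, on chow and on MCD (limma estimate with its 95% interval, 3 mice per group), with filled points at an adjusted p under 0.05. *Csad* on MCD, at -2.15, is the 1 filled point.

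Whether the diet acted differently in the genotypes was asked by the difference of the diet effects. *Csad* was the 1 gene called, with an effect below that in WT mice, where 0.0963% of all tested genes were called and 0.0562% in that direction. An unadjusted p under 0.05 was found for 9 of the 39, where 15.1% of all tested genes had one. Besides *Csad*, *Mat1a*, *Nnmt* and *Ftcd*, these were *Ahcy*, with a difference of 0.50 on the log2 scale, *Gamt* (0.50), *Gldc* (-0.51), *Shmt1* (0.44) and *Mtrr* (0.34), with adjusted p of 0.263 to 0.327 from limma. These values leave the diet effects of the 38 genes other than *Csad* without a called difference, and with 3 mice per group the standard errors of the differences ran up to 0.39 on the log2 scale for *Nnmt*.

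1 library lay farther from its group than the others over these genes. In WT MCD mouse 1, the median absolute log2 distance of the 39 genes from the mean of the other mice of its group was 0.274, where it was 0.0533 to 0.196 in the remaining 11 libraries, and it had the lowest value of its group for 24 of the 39. Over all tested genes, *Pctp*-/- chow mouse 1 (0.195) and WT chow mouse 1 (0.191) lay farther from their groups than WT MCD mouse 1 (0.172). The macrophage marker sum of WT MCD mouse 1, 540.3 FPKM, was the highest of the 12 libraries, but the markers did not go together. *Clec4f*, *Vsig4*, *Cd5l* and *Timd4* were higher in WT MCD mouse 3. *Lyz2* alone made up 337 FPKM of the sum of WT MCD mouse 1, which also had the highest *Adgre1*, *Cd68* and *Csf1r* of the 12 libraries. Without this mouse, 28 of the 39 genes were called in the diet comparison in WT mice, and *Csad* was still called in both the knockout comparison on MCD (-2.23, adjusted p = 5.3e-04 from limma) and the difference of the diet effects (-2.17, adjusted p = 0.0152).

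Letters before the start sites of the members, which the choice of genes did not use, were searched for motifs. Of the 39 genes, 31 had a RefSeq promoter entry, with 41 windows of 250 bases before a start. GGGCGG was in 63.4% of these windows and in 32.7% of all 32851 windows of the table, and CCAAT was in 48.8% and 33.8%. TATAAA was in 7.32% and 12.4%, with *Mat2a*, *Ftcd* and *Ahcyl1* holding it. TGATGNAA, the composite element of ATF4 and C/EBP factors, was in 0 of the 41 windows and in 3.45% of all, TGACNNNGC, the core of the antioxidant response element, in 4.88% (*Ahcyl1* and *Mpst*) and 10.2%, and CACGTG, the E-box, in 4.88% (*Cbs* and *Sms*) and 6.02%. Each motif was searched on both strands, the first 3 were added after the expression data were seen, and no test was made of these shares. The 32851 windows belong to 27025 genes and were not limited to the genes tested for expression. The shares over the tested genes alone were not counted, so the shares of the members are not read as particular to the list.

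Other genes of the same pathways, in a list of 58 of which 56 were tested, were compared between the diets in the same way. In WT mice 33 were called (58.9%, where 57% of all tested genes were), 17 higher and 16 lower, and in *Pctp*-/- mice 31 (55.4%, where 50.3% were), 13 higher and 18 lower. These shares were near those of all tested genes. The largest falls in WT mice were those of *Pipox*, which oxidises sarcosine and pipecolate in peroxisomes, *Inmt*, which methylates indoleamines, *Kyat1*, a kynurenine aminotransferase, *Agmat*, agmatinase, and *Slc46a1*, a folate transporter. *Pipox* was at 131, 161 and 166 FPKM in WT mice on chow and 9.09, 15.6 and 15.1 FPKM on MCD, and at 159, 147 and 154 FPKM and 23.2, 23.3 and 31.7 FPKM in *Pctp*-/- mice. Its MCD values lay far below its chow values, with those of *Pctp*-/- mice above those of WT, and the log2 fold change was -3.46 in WT and -2.53 in *Pctp*-/- mice (adjusted p = 6.8e-08 and 7.5e-07 from limma). So *Pipox* fell with *Sardh*, the mitochondrial enzyme that acts on the same substrate.

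The largest rises in that list in WT mice were those of *As3mt*, a methyltransferase of arsenic, with a log2 fold change of 2.10 (SE 0.13, limma adjusted p = 2.5e-07), *Sat1* (1.43), which acetylates spermidine and spermine, *Mthfd2* (1.19), a mitochondrial folate dehydrogenase, *Ggh* (1.06), which trims folate polyglutamates, and *Mmadhc* (0.96), which handles cobalamin. *Sat1* rose with *Odc1*, *Amd1* and *Mtap* of the polyamine genes. *Mthfd2* was at 4.56, 3.74 and 1.74 FPKM in WT and 1.403, 1.06 and 0.793 FPKM in *Pctp*-/- mice on MCD, against 0.726, 0.896 and 0.865 FPKM and 0.882, 1.097 and 0.929 FPKM on chow, and the difference of its diet effects was -1.11 (unadjusted p = 0.00299, adjusted p = 0.141). As with *Mthfd1l*, the next enzyme of the mitochondrial path to formate, the WT MCD values lay above all others. In the knockout comparison on chow, 0 of the 56 genes were called by limma. An unadjusted p under 0.05 was found for 5, where 6.98% of all tested genes had one. On MCD, *Pipox* was the 1 called (0.94, adjusted p = 0.0349 from limma), where 0.818% of all tested genes were called. That call was lost in 11 of 22 alternatives (adjusted p 0.0535 to 0.152). Leaving out any 1 library other than WT chow mouse 1, *Pctp*-/- chow mouse 1 or WT MCD mouse 3 was enough to lose it.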

How the data were processed

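RNA from 12 whole mouse livers was sequenced. The authors deposited FPKM, with 1 value for each gene in each liver, and a second table of read and mapping measures, which served for depth only. mm10 is the genome build in the submitters' processing notes, and the aligner, counter, annotation and use of strand are not given in the sources used here. The study's Wald test needs counts, so log2(FPKM + 1) was analysed with limma 3.58.1 in R 4.3.3, in 1 model of the 4 group means over all 12 libraries with a mean-variance trend. It covered 12466 genes whose FPKM averaged 0.5 or more, and p-values were adjusted by Benjamini-Hochberg. The columns were not rescaled, and no 2 libraries held identical values. The script was tested on simulated data.

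The 39 genes, the list of 58 other pathway genes and the marker lists were chosen with earlier results of these data known. Values per library are given for members called in a knockout comparison or the difference of diet effects, for the 15 members with the largest called change on MCD in WT mice and for partner genes. Other pathway genes are named if called in a knockout comparison, or among the 5 largest rises and falls on MCD in WT mice. Beyond this rule, values per library of *Mthfd1l*, *Mtrr* and *Mthfd2* were given after they were seen. Symbols and positions come from GENCODE M21 (GRCm38), promoter sequences from RefSeq (GRCm38.p6). Alternatives covered the pseudocount (0.1 and 0.5), the filter (none and 5), scaling, fits of only the groups compared, a replicate block, limma's trend and robust options, a minimum fold change and leaving out each library. Figures were drawn with matplotlib 3.10.9.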

Additional observations from a re-analysis of the deposited data

Results flagged for a closer look

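*Csad* was flagged because its response to the MCD diet differed between WT and *Pctp*-/- mice by a test of the difference itself. The difference of the diet effects was -2.08 on the log2 scale (standard error 0.26, adjusted p = 0.0144 from limma), with all 3 *Pctp*-/- MCD mice below all 3 WT MCD mice. Without 1 library the difference ranged from -2.20 to -1.87, and it was not called without *Pctp*-/- MCD mouse 2 (-2.06, adjusted p = 0.0556) or mouse 3 (-1.99, adjusted p = 0.0533). No group of these data has the 4 or more samples needed to look for single outlying values.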

How the results depend on the processing

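Of 104 results on single genes, each recomputed under up to 22 alternatives, 89 kept their direction and their side of the threshold in every alternative run, and of 2271 values in all, 2210 did so, 50 lost a call, 11 gained one and 0 changed direction. The count of the 39 genes called between genotypes on MCD was 1, and 2 with no filter on low values, with quantile normalization, with no mean-variance trend and with the replicate block. It ranged from 1 to 2 when 1 library was left out. An absolute log2 fold change of at least 1 left 12 of the 28 genes called on MCD in WT mice and 12 of the 25 in *Pctp*-/- mice. Leaving out 1 library gave 27 to 28 and 21 to 27 genes, and 0 to 1 for the difference of the diet effects. Of the other pathway genes, 1 was called between genotypes on MCD, against 0 with no filter, with only the libraries compared or with an absolute log2 fold change of at least 1, 2 with quantile normalization or the replicate block, and 0 to 3 without 1 library. With an absolute log2 fold change of at least 1, 9 and 13 of them were called on MCD in WT and *Pctp*-/- mice, and without 1 library 0 to 1 for the difference of the diet effects. The cause of these moves was not tested. The fit of only the libraries compared was not run for the difference of the diet effects, since it takes all 12.

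Over all tested genes, 17 were called between genotypes on chow (4 with only the libraries compared, 34 without WT chow mouse 1), 102 on MCD (19 with only the libraries compared, 173 without WT MCD mouse 3) and 12 for the difference of the diet effects (0 without *Pctp*-/- MCD mouse 2, 60 without WT chow mouse 1 or WT MCD mouse 3). An absolute log2 fold change of at least 1 left 1777 of 7110 genes called on MCD in WT mice and 1343 of 6276 in *Pctp*-/- mice. With a minimum mean of 5 FPKM, 6836 genes were tested, and 4448 and 4047 of them were called.

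The groups share replicate numbers that name different mice. Deviations from the group means correlated at -0.10 to 0.20 between same-numbered mice, so the numbers were not taken to pair them. With the replicate block, 0, 2, 28, 24 and 1 of the 39 genes were called for the knockout on chow, the knockout on MCD, the diet in WT, the diet in *Pctp*-/- mice and the difference of the diet effects, and over all tested genes 32 on chow and 59 for the difference. *Ftcd* was the gene gained on MCD and *Mtrr* the gene lost.

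Each group held 3 mice, and a p that misses the threshold does not show that levels were alike. Levels under about 1 FPKM, as for *Mthfd1l*, rest on few fragments. Diet effects cannot be told apart from the mapping and error rates that differed between the diets.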
